A study of Mus musculus with 60 samples.

Results

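The genes described here are the ligands and receptors of axon guidance, the semaphorins, plexins, neuropilins, Slits, Robos, netrins, Dcc, Unc5 receptors, ephrins, and Eph receptors. They were chosen by symbol and not by level: every gene of the expression table that belongs to these families by its name (netrins 1, 3, and 4 among the netrins), which gave 68 of 39756 genes, 34 ligands and 34 receptors. Slitrk1 to Slitrk6 and Plxna4os1 share a prefix with a family but are other genes and were left out. Levels are TPM, each gene's share of all transcripts in a library after correction for gene length, scaled to a sum of 1000000, so that levels of different genes can be set side by side. Of the 68 genes, 62 had a mean of at least 1 TPM over all libraries and were tested. Epha1, Epha2, Epha6, Robo4, Sema3g, and Slit3 were below this level.

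Growing axons steer by cues in their surroundings. Netrins attract through Dcc and repel through Unc5 receptors, and Slits repel through Robo receptors. Class 3 semaphorins are secreted and are read by neuropilins together with plexin-A proteins, whereas most other semaphorins sit in the membrane and bind plexins directly. Ephrins are anchored in the membrane and bind Eph receptor tyrosine kinases on the neighboring cell, ephrin-A proteins mainly EphA receptors and ephrin-B proteins mainly EphB receptors. In the cortex these proteins guide axons across the midline, sort thalamic and callosal fibers, and later act at dendrites and synapses.

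RNA came from 48 libraries of wild-type mouse cortical neurons, 2 labelled E15 with no day of culture and 46 of primary cultures. The cultures received paxillin siRNA or a scrambled (SC) siRNA at DIV2 (day 2 in vitro), with or without BDNF at 20 ng/ml from the same day, and RNA was taken at DIV3, DIV5, or DIV10. The groups with SC siRNA held 3, 4, and 3 libraries at the 3 days, and those labelled paxillin siRNA held 5, 6, and 4. With BDNF, the SC groups held 3, 4, and 3 libraries and the groups labelled paxillin siRNA 4, 5, and 2. Libraries carry a culture number, and cultures 10 and 11 hold only libraries labelled paxillin siRNA. The sources differ on the origin of the cells: the labels give primary neurons of E18 mouse embryos, the methods of the study E18 rat embryos, and its account of the RNA sequencing E15 mouse cultures, with E15 as the start of culture. The values were aligned to a mouse genome. Age, time in culture, and cell makeup of the E15 libraries cannot be told apart. All samples are bulk RNA, in which fewer cells of a type and less RNA per cell cannot be told apart either.

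The values keep no sequencing depth, so no counting error can be given, and each library had 20878 to 23585 genes above 0. Pxn, the gene of paxillin, passed the threshold as lower with paxillin siRNA only at DIV5 without BDNF, at 9.17 ± 0.541 TPM (SD, n = 6) against 15.5 ± 3.45 TPM (n = 4), with a log2 difference of -0.67 ± 0.18 (SE, adjusted p = 0.0186, limma). At DIV3 without BDNF its means were 10.2 TPM with SC siRNA and 9.01 TPM with the paxillin label. The DIV5 groups also differed in the summed astrocyte markers, with means of 5466 TPM with SC siRNA and 1586 TPM with paxillin siRNA. The part of this in the Pxn difference was not tested. At DIV3 and DIV10 without BDNF the log2 differences were -0.16 (adjusted p = 1) and 0.19 (adjusted p = 0.609), and with BDNF they were 0.17 at DIV3, -0.42 at DIV5, and -0.06 at DIV10, none past the threshold of 0.05. The siRNA groups of these days are therefore called by their label below. All 8 neuronal markers were above 0 in every library. Their sum was 3422 to 4566 TPM at DIV3 and 1255 to 2148 TPM at DIV10 with SC siRNA. The sum of 9 astrocyte markers was 326 to 954 and 1687 to 8659 TPM. On the same days 6 oligodendrocyte markers summed to 28.2 to 43.15 and 528 to 1508 TPM. The 6 microglia markers summed to 25.9 to 40.1 and 129 to 717 TPM. Among the cultures, the 7 markers of GABAergic interneurons were lowest in the DIV10 libraries SC 3, SC with BDNF 3, and paxillin siRNA 1 and 2, at 45.4 to 307 TPM, and at least 504 TPM in all others. Nothing beyond the culture numbers says which animals the libraries came from, so p-values measure the spread between these libraries.

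Start regions of 4 of these genes are printed here because Robo1 and Sema3a rose with BDNF and Efna4 and Epha3 fell most with days in culture. Each is the 250 bases before a RefSeq transcript start on GRCm38.p6, read 5′ to 3′ on the strand of the gene. The regions of Robo1 (chr16:72662899-72663148, plus strand) and Sema3a (chr5:13396534-13396783, plus strand) lie within introns of the gene as GENCODE M21 draws it, before an internal start. Those of Efna4 (chr3:89338029-89338278, minus strand) and Epha3 (chr16:63864176-63864425, minus strand) lie before the first exon. None of the 4 overlaps a GENCODE exon of its gene.
Robo1: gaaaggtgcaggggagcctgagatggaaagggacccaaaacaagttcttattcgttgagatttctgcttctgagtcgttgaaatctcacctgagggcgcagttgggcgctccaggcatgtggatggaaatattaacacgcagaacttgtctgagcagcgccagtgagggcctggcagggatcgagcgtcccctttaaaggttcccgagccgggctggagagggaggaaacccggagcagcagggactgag
Sema3a: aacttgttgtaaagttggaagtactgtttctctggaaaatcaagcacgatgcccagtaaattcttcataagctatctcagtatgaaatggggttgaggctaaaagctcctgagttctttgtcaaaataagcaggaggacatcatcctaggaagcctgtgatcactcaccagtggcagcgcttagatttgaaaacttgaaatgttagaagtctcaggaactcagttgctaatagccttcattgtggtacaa
Efna4: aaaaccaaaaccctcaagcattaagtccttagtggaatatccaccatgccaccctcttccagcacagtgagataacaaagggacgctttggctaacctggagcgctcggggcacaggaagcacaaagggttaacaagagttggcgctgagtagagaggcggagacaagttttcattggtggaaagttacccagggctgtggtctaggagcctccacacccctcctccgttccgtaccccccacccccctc
Epha3: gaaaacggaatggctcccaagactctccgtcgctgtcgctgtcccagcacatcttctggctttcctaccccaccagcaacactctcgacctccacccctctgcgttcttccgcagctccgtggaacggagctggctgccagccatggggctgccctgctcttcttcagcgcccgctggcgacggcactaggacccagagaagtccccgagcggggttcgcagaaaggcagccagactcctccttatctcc
Letters of motifs read by activity-dependent factors were searched on both strands in these regions and would stand in capitals. They were the CRE TGACGTCA, its TGACG core, the AP-1 site TGANTCA, and the EGR core GCGTGGG, and these 4 regions held none of them. The region of Plxnd1, which also rose with BDNF, held 1 EGR core. Over all 32851 windows of the same length, 1.55% held the CRE, 17.8% its core, 6.75% the AP-1 site, and 4.3% the EGR core. The 74 windows of 58 of the 68 genes held them in 1.35%, 9.46%, 4.05%, and 10.8%. A match gives letters only and not binding.

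The summed level of the 68 genes was 4237 ± 508 TPM (SD, n = 3) at DIV3 with SC siRNA and 2956 ± 154 TPM (n = 3) at DIV10, so these genes made up less of the RNA in the older cultures. At E15 the sums of the 2 libraries were 2736 and 2422 TPM. Ligands and receptors took similar shares, 2432 ± 294 and 1804 ± 214 TPM at DIV3 and 1537 ± 183 and 1419 ± 73.99 TPM at DIV10. In the DIV10 libraries labelled paxillin siRNA the sum was 1884 ± 432 TPM (n = 4), and every one of them (1323 to 2295 TPM) was below all 3 SC libraries (2831 to 3128 TPM).

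**Figure D1:**
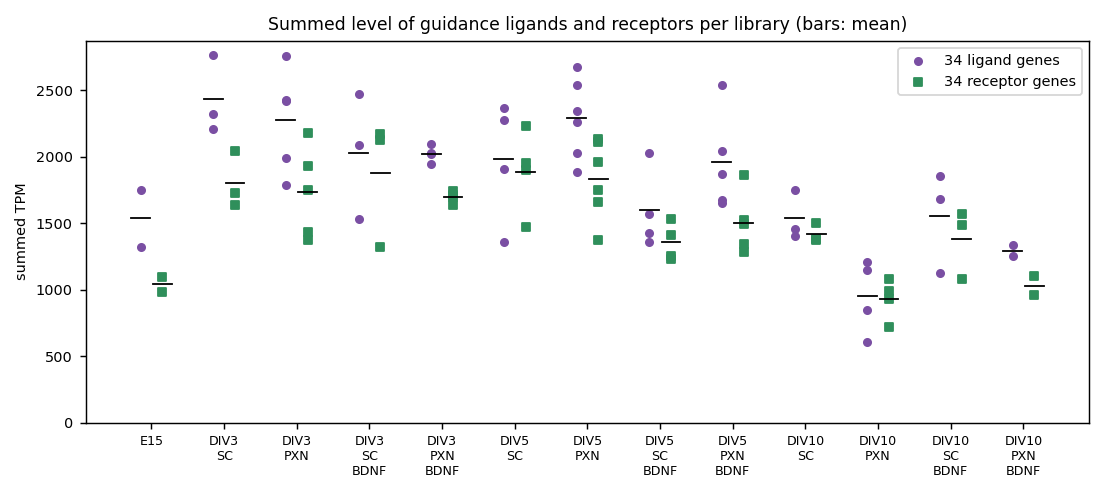
Summed TPM (y axis) of the 34 ligand genes (circles) and 34 receptor genes (squares) in each of the 48 libraries, by group (x axis), with bars at the group mean. At DIV10 the 4 libraries labelled paxillin siRNA without BDNF sum to 605 to 1212 TPM for ligands and the 3 SC libraries to 1406 to 1747 TPM.

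A few genes were the most abundant of their family on most days with SC siRNA. Efnb3 led the ephrin-B ligands (means of 325 TPM at E15, 358 TPM at DIV3, and 269.9 TPM at DIV10), Efna3 the ephrin-A ligands, Epha4 the EphA receptors, and Ephb6, an Eph receptor without kinase activity, the EphB receptors. Slit1, Ntn3, and Unc5a led their families on every day. Sema4g, a membrane semaphorin, was the highest semaphorin at E15 and DIV10, and Sema7a, a semaphorin held by a GPI anchor, at DIV3 and DIV5. Plxna3 was the highest plexin until DIV5 and Plxnb2 at DIV10. Robo3, a divergent Robo known from midline crossing, was the highest Robo in culture. The neuropilins changed places, with Nrp2 the higher on average at E15 and DIV5 and Nrp1 at DIV3 and DIV10, but only at DIV3 did their libraries not overlap.

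From DIV3 to DIV10 with SC siRNA, 15 of the 62 genes tested fell and 6 rose, while of all 14250 genes tested 19.1% fell and 16.1% rose. The share of these genes that fell was therefore 24.2% against 19.1%, and the share that rose 9.68% against 16.1%. The median log2 change of the 62 genes was -0.29, and that of all genes was -0.04. The genes that fell came from most families: the ephrins Efna4, Efnb1, and Efnb2, the Eph receptors Epha3, Epha5, Epha7, and Ephb2, the receptors Robo1 and Dcc, the plexins Plxna3 and Plxna4, and the semaphorins Sema3c, Sema3f, Sema4c, and Sema6c. The genes that rose were Plxnb3, Sema3b, Efna1, Unc5b, Ephb3, and Ntn4.

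Efna4, a ligand of EphA receptors, fell most. Its level was 33.9, 31.3, and 27.1 TPM at DIV3, then 6.89, 9.49, 14.99, and 12.1 TPM at DIV5, and 4.62, 3.801, and 6.49 TPM at DIV10. Each day lay wholly below the one before, and the log2 change from DIV3 to DIV10 was -2.43 ± 0.28 (SE, adjusted p = 3.82e-08). Epha3, an EphA receptor, fell next, from 7.74, 10.4, and 8.39 TPM at DIV3 to 1.25, 0.931, and 1.39 TPM at DIV10, by -2.17 ± 0.32 (adjusted p = 3.08e-06). Its 4 libraries at DIV5 were in between, at 3.12, 2.03, 5.08, and 2.18 TPM. The ligands Efnb1 and Efnb2 fell from 95.4 to 135 and from 130 to 136 TPM at DIV3 to 30.9 to 67.1 and 24.6 to 64.5 TPM at DIV10, with log2 changes of -1.35 and -1.58. Ephb2, a receptor of ephrin-B proteins, went from 35.2 to 39.8 TPM to 6.70 to 19.8 TPM, a change of -1.38 ± 0.42 (adjusted p = 0.00948), and Epha5 and Epha7 changed by -1.26 each. None of these 7 genes had overlapping libraries between DIV3 and DIV10, which held for 30 of the 62 genes tested, called or not. The share of all genes without overlap was not counted, here or in the comparisons below.

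The other Eph genes did not move as a block. Efna1, whose protein also binds EphA receptors, rose from 1.09, 0.868, and 0.716 TPM to 3.74, 11.02, and 3.86 TPM, a log2 change of 1.79 ± 0.60 (adjusted p = 0.0193), and Ephb3 rose from 20.5, 17.9, and 14.01 TPM to 79.9, 21.4, and 31.9 TPM (1.09 ± 0.43, adjusted p = 0.0462). Both rises rest on few libraries. The call of Efna1 was lost without SC 3 of DIV3 or SC 3 of DIV10, and that of Ephb3 in 5 of the 6 fits that left out 1 library. Those of Ephb2 and Epha7 were lost without SC 3 of DIV10. Efna2, Efna3, Efna5, Efnb3, Epha4, Epha8, Epha10, Ephb1, Ephb4, and Ephb6 were not past the threshold, with log2 changes between -0.99 and 0.75.

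Robo1, the Slit receptor that repels axons from the midline, was the receptor outside the Eph family that fell most. It stood at 5.30, 6.90, and 4.90 TPM at DIV3, at 2.64, 1.97, 2.58, and 2.16 TPM at DIV5, and at 0.791, 0.272, and 1.53 TPM at DIV10, and no day overlapped with another. The log2 change from DIV3 to DIV10 was -1.89 ± 0.30 (adjusted p = 9.19e-06). Robo2, its relative, was at 5.77, 5.10, and 6.51 TPM at DIV3 and 5.23, 1.65, and 4.39 TPM at DIV10, a difference that was not past the threshold. Robo3 was at 6.12 to 12.5 TPM and then 6.02 to 23.2 TPM. Among the ligands, Slit1 was at 10.1 to 18.2 TPM at DIV3 and 8.55 to 19.5 TPM at DIV10 and Slit2 at 1.75 to 2.25 and 0.392 to 1.66 TPM, and neither passed the threshold in the SC cultures. Slit3 stayed at or below 0.837 TPM in every library.

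Dcc, the attractive netrin receptor, was low throughout and went from 1.33, 1.17, and 1.63 TPM at DIV3 to 0.971, 0.346, and 0.517 TPM at DIV10, a log2 change of -0.57 ± 0.20 (adjusted p = 0.0263). This call was lost without 4 of the 6 libraries in turn. Unc5b, a repulsive netrin receptor known also from blood vessels, was at 1.81, 1.15, and 2.55 TPM at DIV3 and at 2.10, 9.75, and 6.67 TPM at DIV10 (1.19 ± 0.37, adjusted p = 0.0105), with overlapping groups. Its call was lost without SC 2 of DIV3 or SC 3 of DIV10. Of its relatives, Unc5a (18.4 to 24.0 TPM at DIV3 and 23.4 to 32.7 TPM at DIV10), Unc5c (3.71 to 4.19 and 0.736 to 3.46 TPM), and Unc5d (1.57 to 2.29 and 1.38 to 2.82 TPM) did not pass the threshold. Ntn4, a netrin found in basement membranes, rose from 2.52, 2.62, and 2.30 TPM to 10.0, 3.46, and 4.90 TPM (0.93 ± 0.28, adjusted p = 0.00881), and lost its call without SC 1 of DIV10. Ntn1, the main ligand of Dcc, was at 0.909 to 1.71 TPM and then 1.31 to 6.62 TPM, and Ntn3 at 17.1 to 30.8 and 14.4 to 43.1 TPM.

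Of the 19 semaphorins tested, 4 fell and 1 rose, and their classes were not compared. Sema4c, a membrane semaphorin that binds Plxnb2, fell from 167, 191, and 197 TPM at DIV3 to 119.3, 110, 133, and 102 TPM at DIV5 and 54.1, 51.1, and 81.6 TPM at DIV10 (-1.59 ± 0.22, adjusted p = 9.81e-07), with no overlap between days. Of the secreted class 3 ligands, Sema3c fell from 20.4, 20.3, and 27.8 TPM to 15.1, 2.08, and 6.29 TPM and Sema3f from 31.2, 31.6, and 38.2 TPM to 5.50, 21.8, and 16.9 TPM, whereas Sema3b rose from 1.33, 1.66, and 1.55 TPM to 6.25, 24.8, and 4.65 TPM. Their log2 changes were -1.73 ± 0.48, -1.32 ± 0.36, and 2.02 ± 0.58. The calls of Sema3c and Sema3b were lost without SC 3 of DIV10 and that of Sema3f without SC 1, the libraries farthest from the DIV3 level for each gene. Sema6c fell from 301 to 379 TPM to 115 to 226 TPM (-0.93 ± 0.33, adjusted p = 0.0254), and lost its call without SC 1 or 2 of DIV3 or SC 1 of DIV10.

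Plexins, the receptors of these ligands, moved in both directions as well. Plxna4, which pairs with neuropilins, fell from 28.1, 27.9, and 40.9 TPM to 10.7, 8.19, and 13.5 TPM (-1.501 ± 0.27, adjusted p = 4.07e-05), and Plxna3 from 353, 364, and 498 TPM to 118.6, 195, and 225 TPM (-1.20 ± 0.26, adjusted p = 0.000487). The table also holds Plxna4os1, by its symbol an antisense transcript of Plxna4, and whether counting used strand is not given in the sources used here. Plxnb3, a plexin known from glia, rose from 3.59, 3.74, and 0.629 TPM to 109, 30.5, and 31.6 TPM (3.88 ± 1.06, adjusted p = 0.00418), the largest rise of the 62 genes. In the DIV5 cultures 1, 2, and 4, where the astrocyte markers summed to 4448 to 8688 TPM, Plxnb3 was at 30.6, 85.3, and 124 TPM. It was at 10.3 TPM in culture 3, where they summed to 1407 TPM. At DIV10, SC 3 and SC 6 had similar Plxnb3, 30.5 and 31.6 TPM, with astrocyte markers of 1687 and 4496 TPM. The 5 markers of oligodendrocyte precursors summed to 3392, 5411, 1628, and 4330 TPM in DIV5 SC cultures 1 to 4. They summed to 4100, 1161, and 3367 TPM in SC 1, 3, and 6 of DIV10. The cause of the rise was not tested. With terms for the neuronal and astrocyte markers the change of Plxnb3 was -0.58 (adjusted p = 0.665). Plxna1, Plxna2, Plxnb1, Plxnb2, Plxnc1, and Plxnd1 did not pass the threshold, with log2 changes of -0.80 to 0.51. The neuropilins Nrp1 (7.57 to 9.88 TPM and then 4.003 to 9.33 TPM) and Nrp2 (3.36 to 4.63 and 1.94 to 7.93 TPM) did not pass it either.

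**Figure D2:**
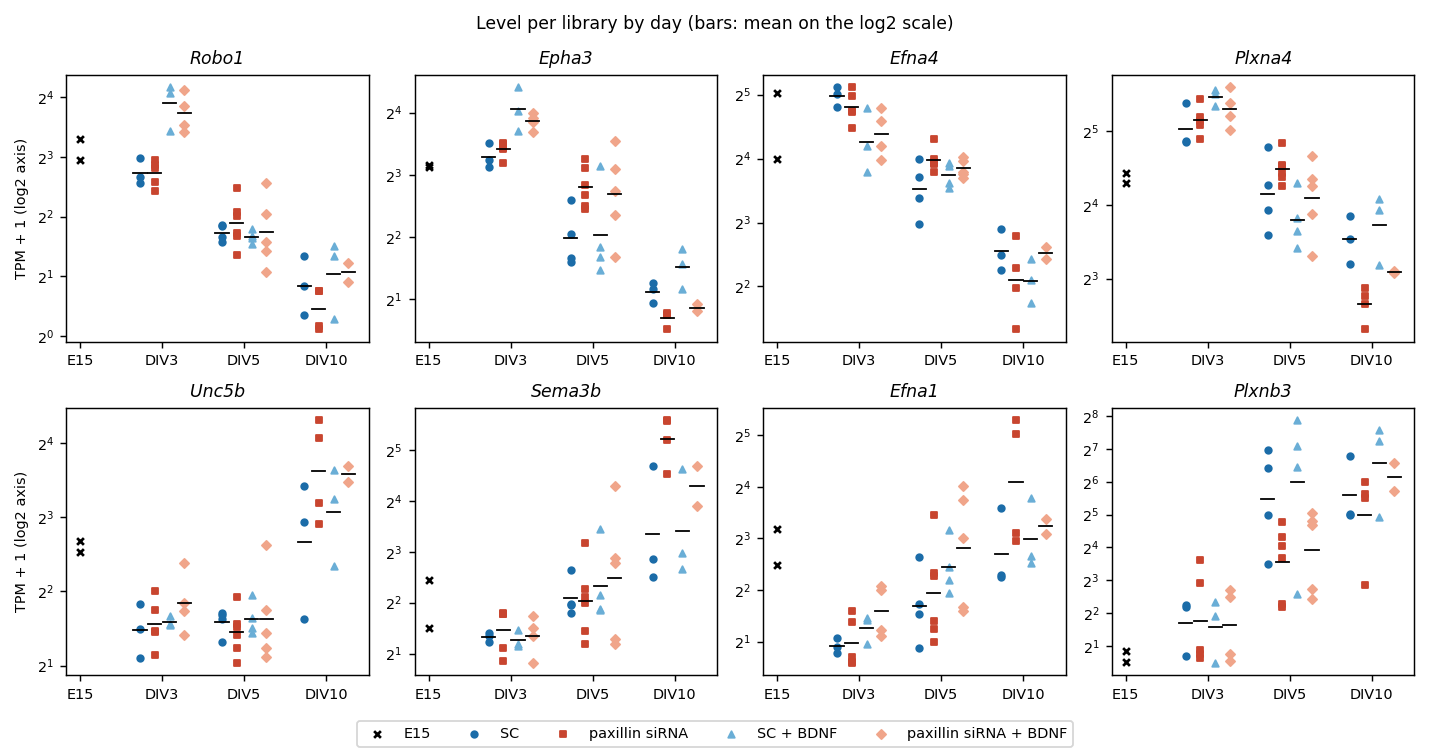
Level of 8 genes in each library on a log2 axis of TPM + 1 (y axis), at E15 and at DIV3, DIV5, and DIV10 (x axis), for the 4 arms of siRNA and BDNF, with bars at the mean of each culture group on the log2 scale. Robo1, Epha3, Efna4, and Plxna4 go down with days in every arm, while Unc5b, Sema3b, Efna1, and Plxnb3 go up with a wider spread.

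The fall of Efna4, Efnb1, Efnb2, Epha3, Robo1, and Sema4c kept its call in all 6 fits that left out 1 library and in the other 10 settings tried. With terms for the neuronal and astrocyte markers, Dcc, Epha5, Ephb2, Plxna3, Plxna4, Sema3f, and Sema6c were no longer called as lower and Efna1, Ephb3, Ntn4, and Sema3b no longer as higher. Library numbers fall into separate series. Within those numbered S1 to S15 (2 libraries of DIV10 against 1 of DIV3) and S65 to S84 (1 against 2), Robo1 changed by -1.72 and -1.98. Efna4 changed by -2.23 and -2.58. Other called genes differed more between the 2 series. Among them were Sema3c (-2.605 and -0.41), Sema3f (-0.96 and -2.32), Sema6c (-0.47 and -1.61), Dcc (-0.88 and -0.19), and Unc5b (1.35 and 0.33).

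Part of these genes differed between DIV3 and DIV5 already, though day and library series are largely confounded in this comparison. All 4 DIV5 libraries with SC siRNA are numbered S1 to S15, and only 1 of those at DIV3 is. From DIV3 to DIV5 with SC siRNA, Efna4 (-1.46 ± 0.26), Epha3 (-1.31 ± 0.30), Robo1 (-0.9996 ± 0.28), Efna3 (-0.91 ± 0.29), Plxna4 (-0.89 ± 0.25), and Sema4c (-0.67 ± 0.20) fell and Plxnb3 (3.75 ± 0.99), Sema3d (1.22 ± 0.35), Plxnc1 (0.90 ± 0.29), and Sema5b (0.87 ± 0.28) rose. That is 6 of 62 down and 4 up, against 1.48% of all genes down and 7.99% up. All 10 genes had groups that did not overlap, which held for 20 of the 62 genes, called or not, and was not counted over all genes. Sema3d, a secreted ligand, was at 1.84, 3.13, and 4.14 TPM in cultures 1, 2, and 4 and at 0.716 TPM in culture 3, and Sema5b at 11.5, 18.9, and 13.7 TPM against 7.88 TPM, as for Plxnb3. With the marker terms the change of Sema3d was -0.22 (adjusted p = 0.693). Within the libraries numbered S1 to S15, 4 against 1, the 10 genes kept their direction, with -1.29 for Efna4 and -0.83 for Robo1. The count of 10 was 2 to 6 without any 1 library other than DIV5 SC 3, and 13 without that one. These counts are not set against all genes here.

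Between DIV5 and DIV10, 7 genes fell, namely Efna4, Efnb1, Sema4c, Robo1, Efnb2, Epha3, and Plxna3, with log2 changes of -0.97 to -0.82 and no overlap, and Unc5b rose by 1.08 ± 0.34 with overlap. Groups did not overlap for 9 of the 62 genes, called or not, and overlap was not counted over all genes. Of all genes, 19.2% fell and 5.75% rose in this comparison, and whether the guidance genes differ from other genes in it was not tested. Their median was -0.30, and the median of all genes was -0.16 here and 0.11 from DIV3 to DIV5. After rescaling by size factors these medians were -0.02 each, 4 of the genes fell and 2 rose from DIV5 to DIV10, and 7 fell and 2 rose from DIV3 to DIV5. The share of rises among all calls went from 23.1% to 44.9% and from 84.4% to 61.0%. Without SC 3 of DIV10, 5 genes were called from DIV5 to DIV10, a count that is not set against all genes here.

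In the other arms, which share no library with each other but share cultures, more genes passed the threshold. With libraries labelled paxillin siRNA, 38 of the 62 genes fell and 4 rose from DIV3 to DIV10 (all genes: 32.4% fell and 21.9% rose), with a median log2 change of -0.97. With SC siRNA and BDNF 20 fell and 8 rose (22.4% and 17.9% of all genes), and with paxillin siRNA and BDNF 24 fell and 8 rose (16.5% and 16.2%). In the last arm the DIV10 group held 2 libraries, and fewer genes were called when either of them was left out. Dcc, Efna4, Efnb1, Efnb2, Epha3, Epha5, Epha7, Ephb2, Plxna3, Plxna4, Robo1, Sema3f, and Sema4c fell in all 4 arms, and Efna1, Plxnb3, Sema3b, and Unc5b rose in all 4. Over all genes, 9.84% fell and 9.65% rose in all 4 arms. The log2 change of Epha3 was -2.17, -2.71, -2.53, and -2.99 in the SC arm, the paxillin siRNA arm, and the same arms with BDNF, and that of Robo1 was -1.89, -2.28, -2.85, and -2.66.

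Some genes passed the threshold in part of the arms. Sema3a, a repulsive class 3 ligand, fell in both arms with BDNF, with log2 changes of -1.67 ± 0.29 and -1.62 ± 0.31 from 2.48 to 6.58 and 2.36 to 3.91 TPM at DIV3, and with paxillin siRNA alone (-0.84 ± 0.24). With SC siRNA alone its change was -0.32, not past the threshold. Unc5d fell in the same 3 arms (-1.05 and -1.55 with BDNF, -0.74 without), and Plxnd1 in both arms with BDNF (-0.96 and -1.46). With the paxillin label alone, Slit1 (-1.002), Slit2 (-1.18), Robo2 (-1.62), Nrp1 (-0.99), Unc5a (-0.63), Unc5c (-1.19), and Sema7a (-2.23) were among those that fell. Unc5a was lower at DIV10 in only 2 of 4 pairs of equal culture number, with changes of -1.60 to 0.34. In this arm 2 of the 4 DIV10 libraries are among those with the lowest interneuron markers. Without the 4 such DIV10 libraries, the arm had 30 genes that fell and 9 that rose, counts that are not set against all genes here. The differences between the arms in these changes were not tested.

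**Figure D3:**
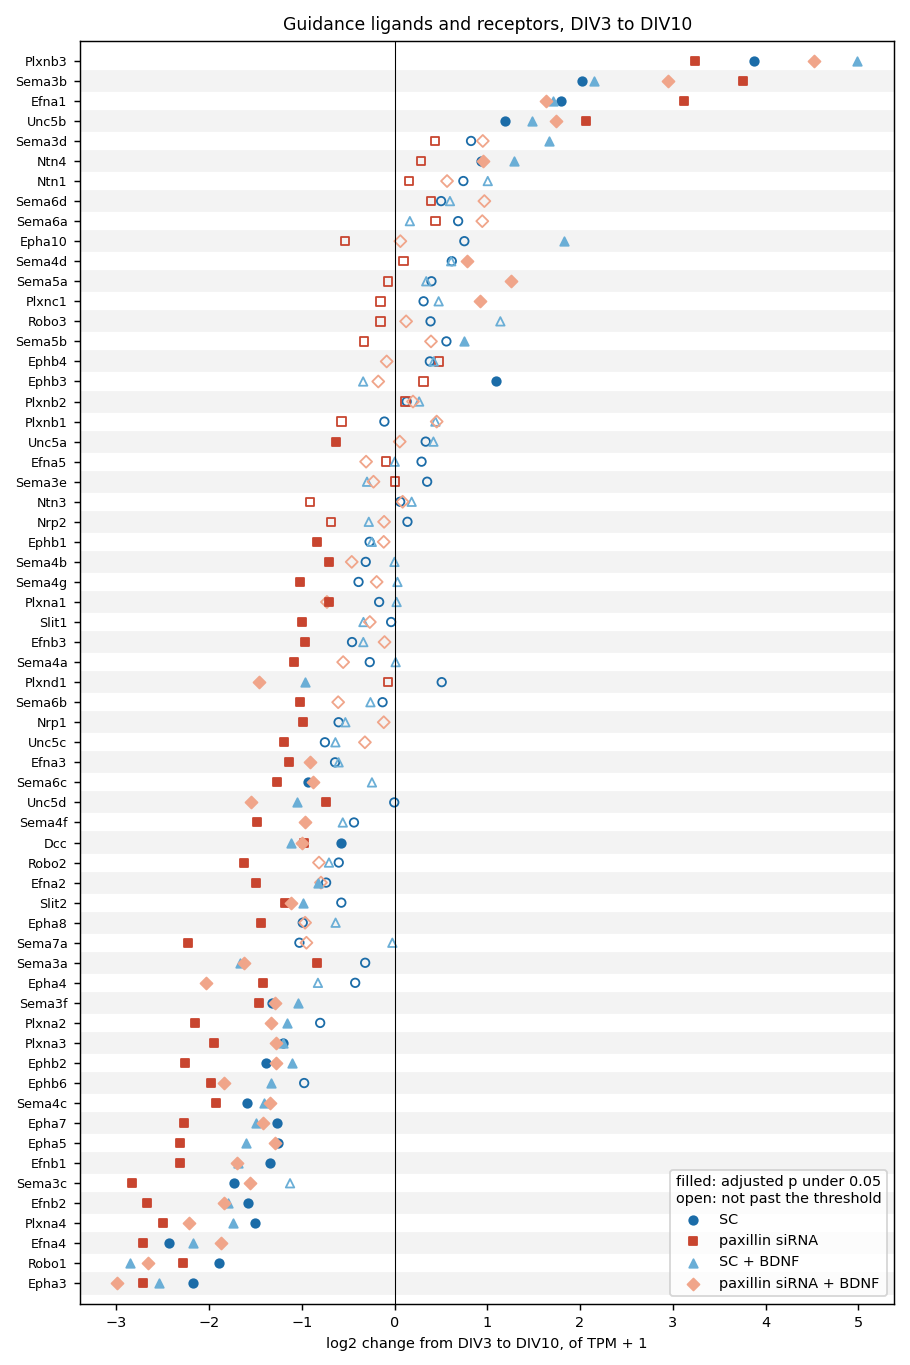
Log2 change of TPM + 1 from DIV3 to DIV10 (x axis) for the 62 genes tested (y axis, ordered by their mean change), in 4 arms, with filled symbols for an adjusted p under 0.05. Most symbols lie left of 0, from Epha3 at -2.99 to -2.17, and Plxnb3 lies farthest to the right at 3.24 to 4.99.

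Between the E15 libraries and DIV3 with SC siRNA, both neuropilins fell and Ephb6, Sema7a, Robo3, Sema6c, and Plxna3 rose. Nrp2 went from 8.72 and 40.7 TPM to 3.75, 3.36, and 4.63 TPM (-2.04 ± 0.46, adjusted p = 0.00519) and Nrp1 from 15.9 and 26.4 TPM to 7.57, 9.88, and 9.46 TPM (-1.12 ± 0.36, adjusted p = 0.0459). Ephb6 rose from 85.7 and 56.7 TPM to 335, 288, and 412 TPM (2.28 ± 0.45), Sema7a from 106 and 60.2 TPM to 295, 252, and 598 TPM (2.13 ± 0.52), and Robo3 from 0.298 and 2.33 TPM to 12.5, 9.35, and 6.12 TPM (2.26 ± 0.65). Sema6c (1.53 ± 0.37) and Plxna3 (1.00 ± 0.29) rose as well. None of the 7 genes had overlapping groups, but the groups of 40 of the 62 genes did not overlap here, called or not. The share without overlap over all genes was not counted. Of the 62 genes 5 rose and 2 fell, against 4.63% and 3.48% of all genes. The calls rest on 2 E15 libraries that differ from each other. Without E15 library 2 no member and 0.618% of all genes were called, without library 1 there were 7 calls, and without DIV3 SC 3 there were 4.

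Markers of vessels and blood were present at E15 and near 0 in the cultures. The 6 endothelial markers summed to 421 and 464 TPM at E15 and to 0.508 to 12.7 TPM in the cultures, and the 5 red blood cell markers to 882 and 1380 TPM against at most 9.54 TPM. Robo4, a Robo of endothelial cells, was at 8.73 and 11.03 TPM at E15 and at most 0.318 TPM in every culture, and Sema3g at 3.30 and 9.43 TPM against at most 2.11 TPM. Nrp1 and Nrp2 are also known as co-receptors of VEGF in vessels. The part of vessel cells in the change of the neuropilins was not tested.

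Genes that act downstream of these receptors, or beside them, moved in the same comparison of DIV3 with DIV10. Of 48 genes of guidance signaling, 46 were tested, and 17 fell and 2 rose with SC siRNA, where 19.1% of all genes fell and 16.1% rose. Those that fell most were the collapsin response mediators Dpysl3 (-1.64), Crmp1 (-1.64), and Dpysl5 (-1.46), which carry semaphorin signals to microtubules, and Srgap1 (-1.49), which binds Robo1. Ngef (2.01), an exchange factor used by EphA receptors, and Chn2 (1.27), a Rac regulator, rose. Of 30 other guidance cues and receptors 29 were tested, and 7 fell and 3 rose, among them the adhesion proteins Cntn2 (-2.28) and Chl1 (-1.3), the netrin antagonist Draxin (-1.95), and Celsr3 (-1.02) down and Omg (2.71), a myelin protein that inhibits growth, Dscam (0.87), and the hedgehog co-receptor Boc (0.79) up. The medians of the 2 lists were -0.30 and -0.40, against -0.04 over all genes.

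With paxillin siRNA at DIV5 and without BDNF, Efna3 and Epha3 were higher and Sema5b was lower than with SC siRNA. Efna3, the most abundant ephrin-A, was at 79.9, 59.7, 116, and 52.1 TPM in the 4 SC libraries and at 166, 158, 109, 145, 137, and 101 TPM in the 6 with paxillin siRNA, a log2 difference of 0.86 ± 0.25 (adjusted p = 0.0333). Epha3 was at 3.12, 2.03, 5.08, and 2.18 TPM with SC siRNA and at 5.39, 6.12, 4.68, 7.61, 8.55, and 4.49 TPM with paxillin siRNA (0.83 ± 0.25, adjusted p = 0.0442). For both genes the only overlap came from SC culture 3. Sema5b, a transmembrane semaphorin, was at 11.5, 18.9, 7.88, and 13.7 TPM with SC siRNA and at 5.48 to 7.46 TPM with paxillin siRNA (-0.85 ± 0.24, adjusted p = 0.0296), without overlap. Thus 2 of 62 genes rose and 1 fell, against 0.8% and 5.38% of all genes.

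The SC group at DIV5 was uneven in its cell types. Astrocyte markers summed to 4448, 7323, 1407, and 8688 TPM in SC cultures 1 to 4 and to 1149 to 2060 TPM with paxillin siRNA, and neuronal markers to 1527 to 3330 and 2428 to 3793 TPM. With terms for both markers no gene was called. The 3 genes had the same direction in 3, 3, and 4 of the 4 pairs of equal culture number, which count as paired here. Pairs 1 and 2 join libraries of different series. In pairs 3 and 4, each within a series, Efna3 differed by -0.08 and 1.455, Epha3 by -0.098 and 1.44, and Sema5b by -0.13 and -0.98. Blocking on culture number gave 13 calls, 5 up and 8 down, or 20.97% of the 62 genes, and it called 22.7% of all genes. The differences and adjusted p-values given above for the 3 genes are of the fit without this block. Within the libraries numbered S1 to S15, 2 against 4, the differences were 0.77 for Efna3, 0.83 for Epha3, and -0.79 for Sema5b. Without SC 1, SC 2, SC 4, paxillin siRNA 1, or paxillin siRNA 2 no gene was called, without paxillin siRNA 4 or 10 there was 1, and without SC 3 there were 10 (14.9% of all genes). After rescaling by size factors 2 genes rose and none fell, as the share of rises among all calls went from 12.95% to 36.8%.

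At DIV10 without BDNF, 7 genes were lower in the libraries labelled paxillin siRNA, in which Pxn was not lower, and none was higher, while 2.18% of all genes were lower. Sema4f, a membrane semaphorin, was at 28.6, 26.2, and 30.5 TPM with SC siRNA and at 5.50, 11.3, 18.9, and 16.8 TPM with the paxillin label (-1.18 ± 0.30, adjusted p = 0.0393). Efnb2 was at 52.8, 24.6, and 64.5 TPM against 12.5, 15.3, 25.7, and 29.97 TPM (-1.12 ± 0.31, adjusted p = 0.0473), and Efnb1 at 36.4, 30.9, and 67.1 TPM against 11.7, 17.5, 36.9, and 31.5 TPM (-0.90 ± 0.25). The groups overlapped for these 2 ephrins. Unc5a was at 23.9, 23.4, and 32.7 TPM against 7.59, 12.2, 17.0, and 16.8 TPM (-0.99 ± 0.28) and Plxna4 at 10.7, 8.19, and 13.5 TPM against 3.96, 6.30, 5.81, and 5.32 TPM (-0.88 ± 0.25), both without overlap. Sema5b (-1.05 ± 0.28) and Sema4a (-0.96 ± 0.27) did not overlap either. Groups did not overlap for 10 of the 62 genes, called or not, and overlap was not counted over all genes.

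The median log2 difference of the 62 genes was -0.61, against -0.06 over all genes, and 34 of them (54.8%) had an unadjusted p under 0.05 in limma, against 24.97% of all genes. The paxillin group holds libraries that stand apart. Libraries 1 and 2 labelled paxillin siRNA held neuronal markers at 504 and 800 TPM, interneuron markers at 45.4 and 50.4 TPM, and fewer long transcripts, the median log2 level of long less short transcripts, centered over the libraries, being -0.60 and -0.45. The members have longer transcripts (median 5264.5 bases) than all genes tested (3222 bases). Without the 4 DIV10 libraries of low interneuron markers, which left 2 against 2, no member and 0.365% of all genes were called, and 17 members (27.4%, against 13.6% of all genes) had an unadjusted p under 0.05. The 2 SC and 2 paxillin libraries left share no library series and no culture number. Label, series, and culture cannot be told apart among them. With all libraries, only SC 1 shares a series with any of the paxillin label, namely libraries 1 and 2. The 7 differences kept their direction without the 4 libraries. Plxna4 (-0.99 ± 0.31) and Efnb2 (-1.05 ± 0.30) differed about as much as with all libraries, while the other 5 genes lay between -0.70 and -0.47. With terms for transcript length and GC content no gene was called. Without SC 1, SC 6, or paxillin siRNA 1 or 2 of DIV10 the count was 0, without SC 3 or paxillin siRNA 10 it was 27 (18.7% and 14.6% of all genes), and without paxillin siRNA 11 it was 28 (16.2%). After rescaling by size factors 2 genes were lower and 1 was higher, as the share of rises among all calls went from 15.5% to 53.5%.

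**Figure D4:**
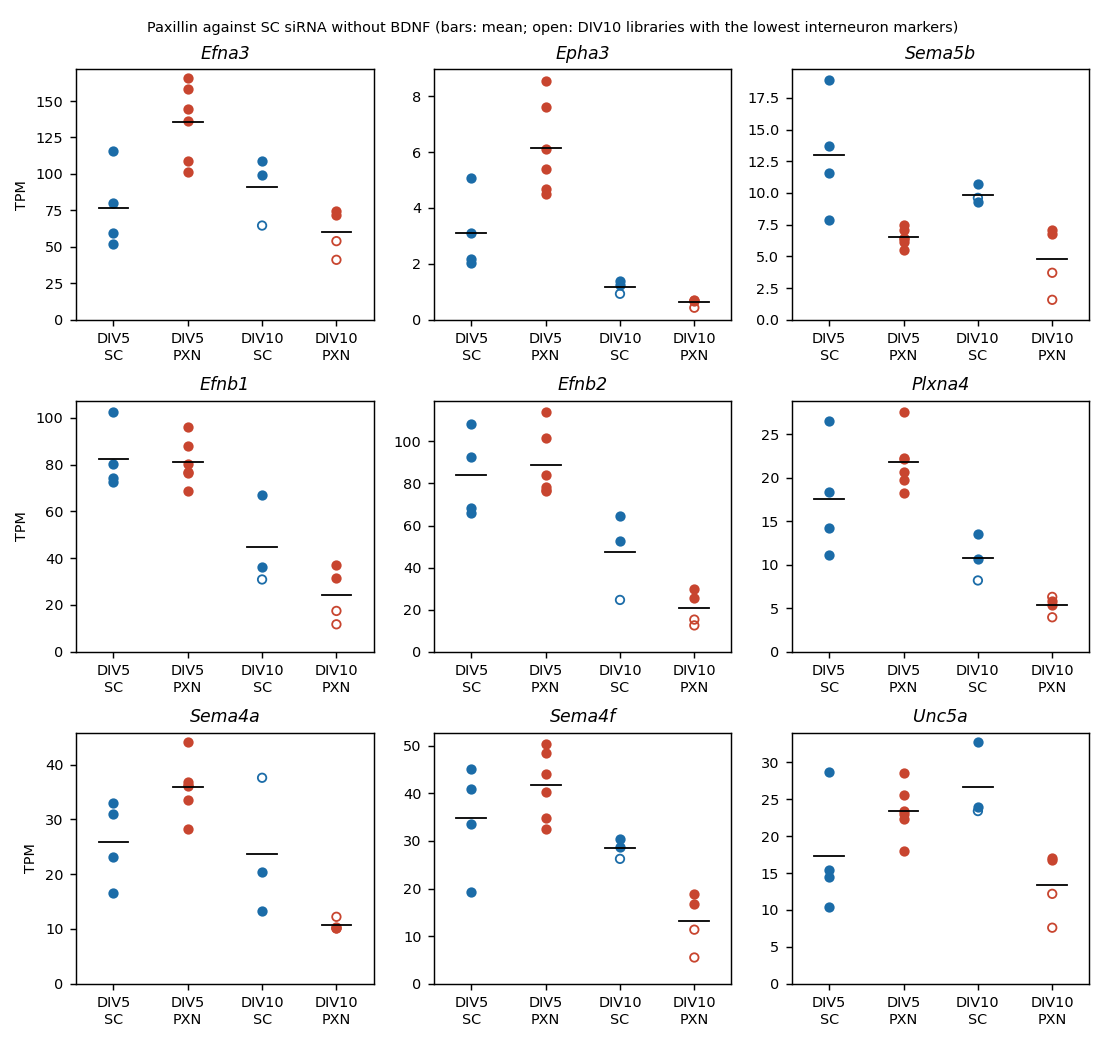
TPM per library (y axis) of the 9 genes called between libraries labelled paxillin siRNA (PXN) and SC siRNA at DIV5 or DIV10 without BDNF (x axis), with bars at the mean and open symbols for DIV10 libraries with the lowest interneuron markers. At DIV5 the points of Efna3 and Epha3 lie higher with paxillin siRNA and those of Sema5b lower, and at DIV10 the open points are the lowest of the PXN group for Efnb1, Efnb2, Sema4f, Sema5b, and Unc5a, but for Plxna4 (6.30 TPM) and Sema4a (12.2 TPM) library 2 is the highest of that group.

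The siRNA difference itself changed between the days for 8 genes, all lower at DIV10 than at DIV5 relative to SC siRNA, against 2.16% of all genes. They were Epha4 (-1.51 ± 0.47), Unc5a (-1.49 ± 0.37), Sema4f (-1.49 ± 0.40), Sema4a (-1.45 ± 0.36), Efna3 (-1.45 ± 0.38), Sema6b (-1.42 ± 0.41), Epha3 (-1.26 ± 0.39), and Plxna4 (-1.23 ± 0.33). Without the 4 DIV10 libraries, which left DIV10 groups with no library series in common, 2 of the 62 genes were called. This count and those that follow are not set against all genes here. Left out 1 at a time, SC 2 or 4 of DIV5 brought the count to 0, paxillin siRNA 1 of DIV10 to 1, SC 6 and SC 1 of DIV10 to 2 and 3, and paxillin siRNA 1 or 2 of DIV5 to 5, whereas SC 3 of DIV5 and SC 3, paxillin siRNA 10, and paxillin siRNA 11 of DIV10 brought it to 14, 18, 20, and 16.

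No gene was called for siRNA at DIV3, where 0% of all genes passed, and 0 members and 21 of all genes had an unadjusted p under 0.05 in limma. With BDNF in both groups no member was called at DIV3 (0% of all genes), DIV5 (0.596%), or DIV10 (0.0211%), and 0, 14, and 5 members (0%, 22.6%, and 8.07%) had an unadjusted p under 0.05, against 1.61%, 18.7%, and 7.18% of all genes. At DIV5 with BDNF 14 members and 9.10% of all genes were called without SC with BDNF 3, the culture of that group with the fewest astrocyte markers. Of the guidance signaling genes, Fyn (-0.72), Arhgap35 (-0.51), Abl1 (-0.47), and Rhoa (-0.42) were lower with paxillin siRNA at DIV5 without BDNF. They are a kinase used by semaphorin and netrin receptors, a GTPase-activating protein, a kinase downstream of Robo, and the GTPase that drives growth cone collapse. Of the other guidance genes, Celsr3 (-0.87) was lower at DIV10.

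BDNF, a neurotrophin that acts through TrkB, raised Robo1 in both siRNA arms at DIV3, 1 day after it was given. With SC siRNA, Robo1 was at 5.30, 6.90, and 4.90 TPM without BDNF and at 17.1, 15.9, and 9.80 TPM with BDNF (1.16 ± 0.30, adjusted p = 0.0416). With the paxillin label it was at 4.41 to 6.72 TPM in 5 libraries and at 9.65, 10.6, 16.4, and 13.4 TPM with BDNF (1.00 ± 0.25, adjusted p = 0.0178). No library without BDNF reached one with BDNF, and Robo1 was higher with BDNF in 3 of 3 and 4 of 4 pairs of equal culture number. Groups did not overlap for 14 of the 62 genes with SC siRNA and 9 with the paxillin label, called or not. Overlap was not counted over all genes. With BDNF, Robo1 at DIV3 was also above its level at E15, 6.74 and 8.79 TPM. By DIV5 its level was 1.92 to 2.46 TPM with BDNF and 1.97 to 2.64 TPM without in the SC cultures.

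Sema3a and Unc5d rose with BDNF in the SC cultures and Plxnd1 in those labelled paxillin siRNA. Sema3a was at 1.42, 1.49, and 1.20 TPM without BDNF and at 6.58, 5.97, and 2.48 TPM with it (1.27 ± 0.29, adjusted p = 0.0175), and Unc5d at 1.77, 1.57, and 2.29 TPM and 5.24, 3.70, and 3.71 TPM (0.85 ± 0.22, adjusted p = 0.0434). Plxnd1, the receptor of Sema3e, was between 78.3 and 133 TPM in the 5 libraries with the paxillin label and reached 204, 151, 312, and 300 TPM with BDNF (1.28 ± 0.31, adjusted p = 0.0160). In the other arm Plxnd1 was at 78.4, 85.6, and 135 TPM and 380, 213, and 208 TPM, a difference of 1.39 ± 0.38 (adjusted p = 0.0569), and Sema3a and Unc5d differed by 0.76 (adjusted p = 0.102) and 0.46 (adjusted p = 0.249) in the libraries labelled paxillin siRNA. The difference between the arms was not past the threshold for any gene of the table, with 0 of 62 members and 162 of all genes at an unadjusted p under 0.05 in limma. All 5 differences had the same direction in every pair of equal culture number.

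In all, 3 of 62 genes rose with SC siRNA, against 1.03% of all genes, and 2 rose with the paxillin label, against 1.31%, and none fell. Equal culture numbers count as paired in both comparisons. The differences and adjusted p-values given above are of the fit without a block. Blocking on culture number gave 6 calls with SC siRNA, where 4.01% of all genes were called, and 3 with the paxillin label, where 5.49% were. Within library series, Robo1 differed by 0.87 and 1.31 with SC siRNA and by 1.24 and 0.82 with the paxillin label. The call of Robo1 in the SC cultures was lost without SC 1, 2, or 3 or SC with BDNF 1 or 2 in turn, with log2 values of 1.02 to 1.39. The counts went to 0 without SC 1, 2, or 3 or SC with BDNF 1, and in the paxillin arm to 0 without library 10 or 11 with BDNF and to 1 without paxillin siRNA 1, 3, or 11. With a pseudocount of 0.1 TPM none was called with SC siRNA. Interneuron markers summed to 743 to 1467 TPM without and 1026 to 2271 TPM with BDNF in the SC cultures, and to 842 to 1541 and 1375 to 2624 TPM with the paxillin label, and their part in these differences was not tested.

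**Figure D5:**
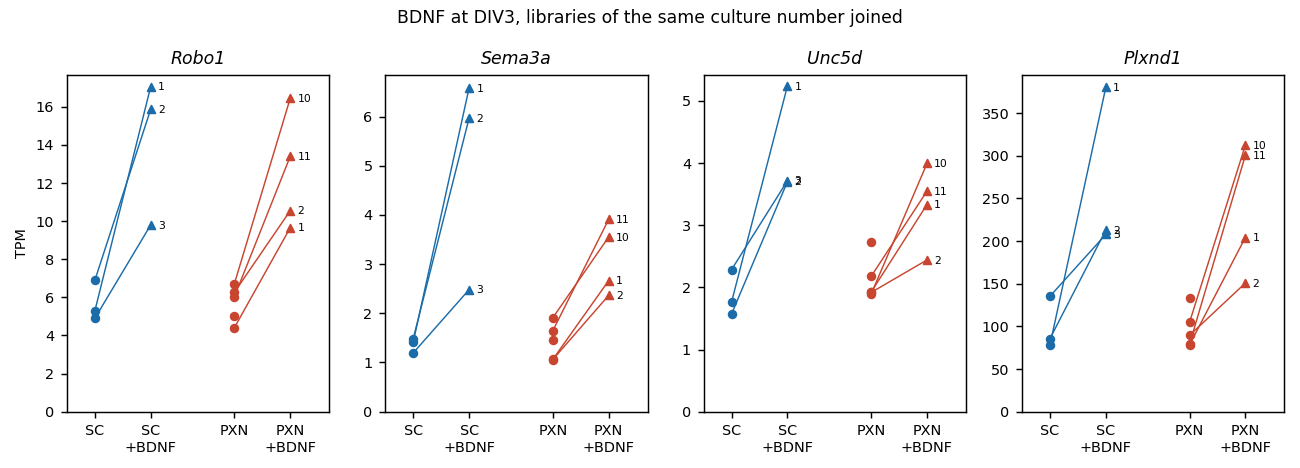
TPM per library (y axis) of Robo1, Sema3a, Unc5d, and Plxnd1 at DIV3 with SC siRNA or the paxillin label (PXN), without and with BDNF (x axis), with lines joining libraries of the same culture number, which stands beside the point. Every line goes up, for Robo1 from 4.41 to 6.90 TPM to 9.65 to 17.1 TPM, and the PXN point with no line is culture 3, which has no partner with BDNF.

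Members that did not pass the threshold at DIV3 in the SC cultures include Ephb3, an ephrin-B receptor, at 20.5, 17.9, and 14.01 TPM without BDNF and 138, 43.6, and 19.4 TPM with it (1.46 ± 0.43, adjusted p = 0.0930). Sema3e, the ligand of Plxnd1, was at 0.600, 0.477, and 1.10 TPM and 4.25, 0.969, and 6.15 TPM (1.298 ± 0.42, adjusted p = 0.146). Both groups overlap, with culture 3 near the controls for Ephb3 and culture 2 for Sema3e. Of the signaling genes, Mical2, of a family of oxidases that take actin apart, rose with BDNF in both arms (1.56 and 1.78), Rasa1 (0.87) in the SC arm, and Pak1 (0.99) in the paxillin arm, where Rnd1 (-0.77) and Farp1 (-0.56), regulators of plexin signaling, fell and Boc (0.90) rose.

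At DIV5 and DIV10 no member was called for BDNF in either arm. Of all genes, 0.0491% and 0% passed with SC siRNA at these days and 0.014% at each with the paxillin label. By unadjusted p under 0.05 in limma there were 7 and 1 members (11.3% and 1.61%) with SC siRNA, against 8.90% and 2.47% of all genes, and 8 and 18 (12.9% and 29.03%) with the paxillin label, against 6.88% and 18.02%. In the last of these, at DIV10, the median log2 difference of the 62 genes was 0.56 against 0.09 for all genes, and its group without BDNF holds libraries 1 and 2 of low interneuron markers while the group with BDNF holds only cultures 10 and 11. Without library 10 or 11 of the group without BDNF, 7 and 8 members were called, with 6.99% and 8.13% of all genes.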

How the data were processed

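Gene levels were taken as TPM values that the authors deposited in one table, made by aligning paired-end reads of an mRNA library kit (SureSelect XT HS2) with STAR 2.7.10 to GRCm38.p6 and estimating levels with RSEM 1.3.3, per the labels and the study's methods. TPM keeps no depth, and a value moves when other genes take more of a library. Long-read counts of hippocampus were not used. For genes whose mean over libraries reached 1 TPM, log2(TPM + 1) was fitted with limma 3.58.1 in R 4.3.3 (lmFit, contrasts, eBayes with trend) over 13 groups and 48 libraries, so all groups shared an estimate of spread. P-values are two-sided and Benjamini-Hochberg adjusted over all 14250 genes tested, with a threshold of 0.05, and log2 changes on this scale understate those of low genes. The fit was tested on simulated data. Figures used matplotlib 3.10.9 in Python 3.11.15. The members, the lists, and the rule for named genes were chosen with earlier results of these data known. That rule took up to 8 genes each way per comparison of days and 6 per comparison of siRNA or BDNF, the leading gene of each family, and all of the smaller families, and other genes were named after their values were seen. Equal culture numbers counted as pairs where at least 3 pairs all correlated above 0.1 in their deviations, which held for SC with BDNF over days (0.30 to 0.54), siRNA at DIV3 (0.28 to 0.81) and DIV5 (0.24 to 0.49), and BDNF at DIV3 and DIV5 in the SC (0.29 to 0.79) and paxillin arms (0.32 to 0.78). Alternatives were another pseudocount, no filter, size factors, only the groups compared, culture number as a block, library series, and leaving out cultures or single libraries. Leaving out 4 DIV10 libraries and terms for markers or for transcript length and GC content were added after seeing the data.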

Additional observations from a re-analysis of the deposited data

Results flagged for a closer look

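Single libraries stood apart within a group of 4 to 10 for 15 of 175 pairs of gene and group, where chance gives about 5% (Dixon's gap test at the 95% level). Several were of culture 4 or culture 3 at DIV5. Sema3b was highest in culture 4 in all 4 arms at DIV5, at 5.22 TPM with SC siRNA (others at most 2.93 TPM), 8.06 TPM with paxillin siRNA (at most 3.79 TPM), 9.97 TPM with SC siRNA and BDNF (at most 3.45 TPM), and 18.65 TPM with paxillin siRNA and BDNF (at most 6.31 TPM). Efna1 was at 10.0 TPM in culture 4 with paxillin siRNA, against at most 4.01 TPM. With SC siRNA and BDNF at DIV5, culture 3 was highest for Epha3 (7.81 TPM, others 1.77 to 2.57 TPM), Epha5 (15.99 TPM, others 8.14 to 9.40 TPM), Sema3f (25.0 TPM, others 10.7 to 11.3 TPM), and Unc5a (20.6 TPM, others 8.83 to 9.95 TPM). This culture had astrocyte markers of 1514 TPM, against 4659 to 6869 TPM in the other cultures of the group, and the part of these markers was not tested.

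In the DIV5 paxillin siRNA group, culture 3 was highest for Efna4 (18.8 TPM, others 12.8 to 14.96 TPM) and lowest for Sema3a (0.709 TPM, others at least 1.51 TPM). Sema3a was highest in SC culture 1 at DIV5 (1.70 TPM, others at most 0.844 TPM). At DIV10 with the paxillin label, Epha3 was lowest in culture 1 (0.4325 TPM, others at least 0.675 TPM) and Sema4a highest in culture 2 (12.2 TPM, others 10.1 to 10.3 TPM). At DIV3 with the paxillin label, Sema4f was highest in culture 3 (42.9 TPM, others at most 34.2 TPM).

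The siRNA difference was lower at DIV10 than at DIV5 in a test of the difference itself for Epha4 (-1.51 on the log2 scale, adjusted p = 0.0456, limma), Unc5a (-1.49, adjusted p = 0.0201), Sema4f (-1.49, adjusted p = 0.0267), Sema4a (-1.45, adjusted p = 0.0214), Efna3 (-1.45, adjusted p = 0.0267), Sema6b (-1.42, adjusted p = 0.0381), Epha3 (-1.26, adjusted p = 0.0491), and Plxna4 (-1.23, adjusted p = 0.0267).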

How the results depend on the processing

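Counts are of the 62 genes called. Here and in the next paragraph, the share of all genes called is given only for the block. The other counts alone do not show whether these genes differ from other genes. They stayed within 1.5 times under each setting for DIV3 to DIV10 in the paxillin siRNA and SC with BDNF arms, and the causes of the changes below were not tested. With a pseudocount of 0.1, BDNF at DIV3 gave 0 with SC and 1 with paxillin siRNA. Without a filter there were 11 (E15 to DIV3), 6 (DIV3 to DIV5), 0 (siRNA at DIV5 and at DIV10), and 5 (change of the siRNA difference). Size factors left 3 for siRNA at DIV10. With only the groups compared there were 18 (E15 to DIV3), 8 (BDNF at DIV3 with paxillin siRNA), and 0 for DIV3 to DIV5, DIV5 to DIV10, siRNA at DIV5 and DIV10, BDNF at DIV3 with SC, and the siRNA change. With the culture number as a block there were 21 (DIV5 to DIV10), 13 (siRNA at DIV5), 23 (siRNA at DIV10), 6 and 3 (BDNF at DIV3 with SC and paxillin siRNA), 1, 11, and 1 (siRNA with BDNF at DIV3, DIV5, and DIV10), 2 and 1 (BDNF at DIV5 with SC and paxillin siRNA), and 14 (siRNA change), and the block moved no other count by over 1.5 times. In the order of these block counts, the block called 34.7%, 22.7%, 19.1%, 4.01%, 5.49%, 0.386%, 21.96%, 1.07%, 0.94%, 0.393%, and 12.9% of all genes. Without cultures 10 and 11 there were 39 (siRNA at DIV10), 0 and 1 (BDNF with paxillin siRNA at DIV3 and DIV5), and 31 (siRNA change). With library series there were 15 (E15 to DIV3), 14 (DIV5 to DIV10), 11 and 36 (siRNA at DIV5 and DIV10), 4 (siRNA at DIV5 with BDNF), 6 and 2 (BDNF with SC at DIV3 and DIV5), and 20 (siRNA change). Without the 4 DIV10 libraries there were 15, 16 (DIV3 to DIV5), 9 and 0 (siRNA at DIV5 and DIV10), 2 and 4 (the same with BDNF), 6 and 4 (BDNF at DIV3 with SC and paxillin siRNA), and 2 (siRNA change). With marker terms there were 21 (E15 to DIV3), 5 and 13 (DIV3 to DIV5 and DIV5 to DIV10), 0 and 1 (siRNA at DIV5 and DIV10), 7 and 3 (BDNF with SC at DIV3 and DIV5), 6 and 1 (the same with paxillin siRNA), and 0 (siRNA change). With length and GC terms there were 1 (E15 to DIV3), 5 (DIV5 to DIV10), 11 and 0 (siRNA at DIV5 and DIV10), and 6 (BDNF at DIV3 with paxillin siRNA).

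Leaving out 1 library gave 0 to 7 calls from E15 to DIV3, 2 to 13 from DIV3 to DIV5, 5 to 11 from DIV5 to DIV10, 14 to 23 from DIV3 to DIV10 with SC siRNA, 41 to 46 with paxillin siRNA, 23 to 28 with SC and BDNF, and 16 to 30 with paxillin siRNA and BDNF. For siRNA it gave 0 to 0 at DIV3, 0 to 10 at DIV5, 0 to 28 at DIV10, and with BDNF 0 to 14 at DIV5 (14 without SC with BDNF 3). For BDNF it gave 0 to 3 at DIV3 and 0 to 4 at DIV5 with SC siRNA (3 without SC 4 and 4 without SC with BDNF 3), 0 to 2 at DIV3 and 0 to 8 at DIV10 with paxillin siRNA, and for the siRNA change 0 to 20. Of 2947 alternatives for 171 called changes, 2375 kept direction and call, 560 the direction only, and 12 reversed. With marker terms Plxnb3 changed by -0.59 from DIV3 to DIV5 and by -0.58, -1.655, and -0.34 from DIV3 to DIV10 with SC, paxillin siRNA, and paxillin siRNA with BDNF, Sema3d by -0.22 from DIV3 to DIV5, Epha8 by 0.45 and Unc5a by 0.31 with paxillin siRNA, Plxnd1 by 0.0045 with SC and BDNF, and Ntn4, Plxnc1, and Sema5a by -0.20, -0.095, and -0.39 with paxillin siRNA and BDNF, and with length and GC terms Slit1 changed by 0.065 with paxillin siRNA. Rescaling by size factors moved the share of rises among all calls from 20% to 75% for siRNA at DIV5 with BDNF, from 33.3% to 50% at DIV10 with BDNF, and from 14.3% to 0% for BDNF at DIV5 with SC siRNA.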
